A study of Mus musculus with 2 samples.

Results

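The C1q/TNF-related proteins described here are the products of 7 mouse genes, *C1qtnf1* to *C1qtnf7*, which were taken by symbol from the gene lists of an E15.5 library with 31053 genes and an E17.5 library with 27998 genes. All 7 were listed in both libraries under the same identifiers. The family was chosen by the level of *C1qtnf3* in the ectocranial cluster EC4 in an earlier pass over these data, so all levels are given as a description, without a test. Cells came from the coronal sutures of wildtype C57/BL6 embryos, and neither stage carried an allele or treatment. For E15.5, 10 sutures were pooled, dissociated with collagenase II and dispase and cleared of dead cells with a removal kit. For E17.5, sutures of 2 litters were processed in 3 batches. Collagenase IV was used and FACS took out debris, doublets and likely dead cells, and 1 matrix holds all batches, with a barcode suffix from 1 to 3 on its cells that the labels do not tie to a batch. There was 1 library per stage, and stage, enzyme, sorting, sequencing site and gene list cannot be told apart.

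In 15 clusters, the authors' labels placed 5335 cells of the E15.5 matrix and 6830 cells of the E17.5 matrix. EC1 to EC4 are ectocranial (above the bone), LIG is ligament-like, MG1 to MG4 are meningeal, and OG1 to OG4 and the proliferating PO1 and PO2 are osteogenic. These cells held 48607817 UMIs (unique molecular identifiers, each counting 1 captured mRNA molecule) at E15.5 and 92585034 at E17.5. A level is a gene's UMIs scaled to counts per 1000000 UMIs of the cluster (CPM), with an exact Poisson 95% interval in parentheses. Intervals hold counting error alone, so embryos and batches may differ by more. At E15.5 no labelled cell had the UMI total listed in the authors' table, whose median was 11513 against 8510 in the matrix, whereas at E17.5 all cells did. The libraries shared 42 barcode sequences among labelled cells. The mesenchymal markers *Col1a1*, *Col1a2*, *Pdgfra*, *Prrx1*, *Twist1* and *Dcn* were higher in labelled than in unlabelled cells in both libraries.

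C1q/TNF-related proteins are secreted relatives of adiponectin. Most members join a collagen-like stretch to a globular head resembling that of complement C1q, and they assemble into trimers and larger complexes that circulate or act near the cells that release them. The family is best known from fat, muscle and vessels, and *C1qtnf3* was also described in cartilage, where its product, cartducin, acts on chondrocyte precursors.

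The 7 genes fell into 3 kinds of pattern. *C1qtnf3*, *C1qtnf4* and *C1qtnf7* were concentrated in particular layers, *C1qtnf2* and *C1qtnf6* gave UMIs in all clusters, and *C1qtnf1* and *C1qtnf5* gave few UMIs. By a limit of 2-fold over all other labelled cells in both libraries, 3 of the 7 were enriched in their leading cluster, the one with the highest mean level of both libraries. By the same call 19.2% of all 11868 genes with at least 50 UMIs in each library were enriched in their own highest cluster. *C1qtnf5*, with 2 UMIs at E15.5 and 3 at E17.5, was not among those genes. The EC4 level of *C1qtnf3*, 1 of the 3, was the value by which the family was chosen. *C1qtnf7* was just inside this limit, at 2.32-fold in EC2 at E15.5. *C1qtnf2* was just outside, at 2.01-fold and 1.76-fold in MG1.

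**Figure D1:**
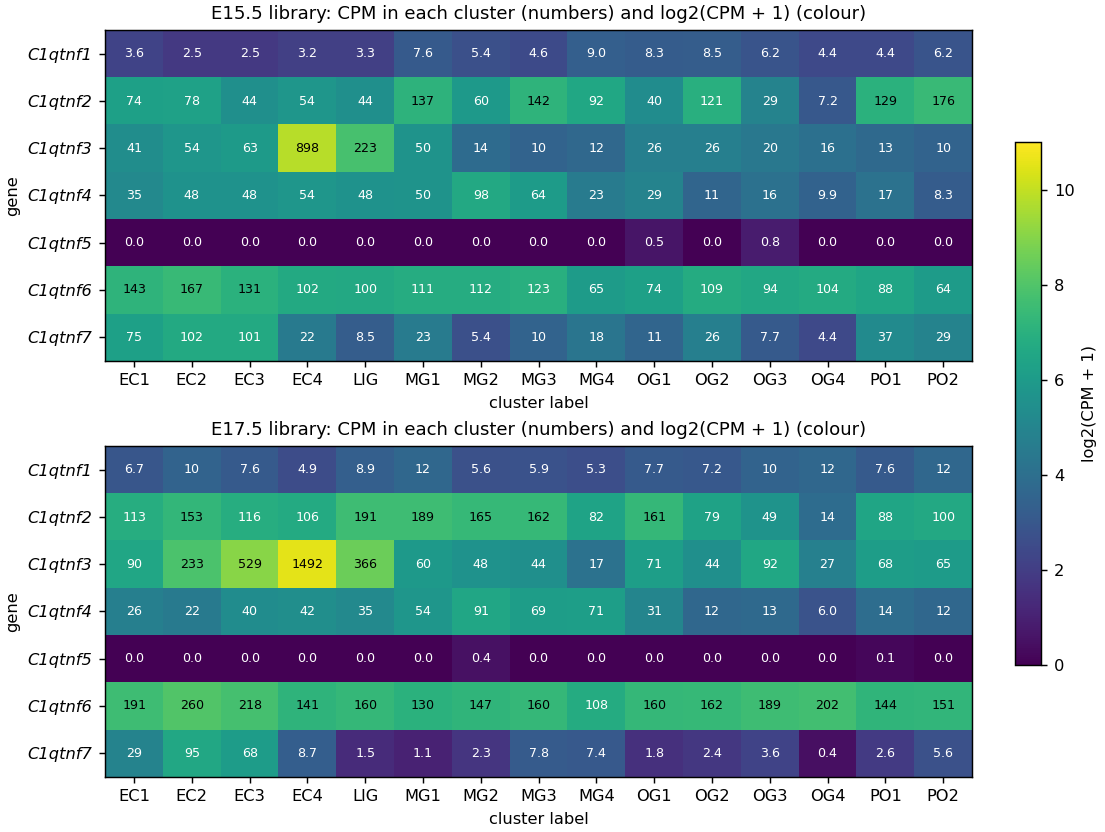
Level of each of the 7 genes (rows) in each of the 15 labelled clusters (columns), with 1 panel per library, where the number is the level in CPM and the colour is log2(CPM + 1). *C1qtnf3* stands out in EC4, at 898 CPM at E15.5 and 1492 CPM at E17.5, whereas *C1qtnf6* lies between 64 and 260 CPM in every cluster and *C1qtnf5* is near 0.

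*C1qtnf3* (ENSMUSG00000058914, GRCm38 chr15:10952332-10980150, plus strand) had its highest labelled level in the suprasutural EC4 cells in both libraries. The authors define EC4 by *C1qtnf3* and *Tnmd* in these same data, so the contrast is not independent of the label. The EC4 level was 898 CPM in the E15.5 library (869 to 927), and 1492 CPM in the E17.5 library (1457 to 1528). The ratio to all other labelled cells was 16 (15.2 to 16.8) at E15.5 and 12.6 (12.2 to 13) at E17.5, with 19.3, 11 and 11.4 for barcode suffix 1, 2 and 3 alone, and 1.26% of all genes were at least 2-fold higher in EC4 in both libraries. By suffix the EC4 level was 1789, 1377 and 1380 CPM. The other cells also differed by suffix, with 32, 314 and 329 LIG cells. EC4 made up 8.79% of the labelled cells at E15.5 and held 59.5% of the *C1qtnf3* UMIs. At E17.5 it made up 5.42% of the cells and held 39.1% of the UMIs.

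The rest of the *C1qtnf3* UMIs were spread unevenly and differently in the libraries. LIG came second at E15.5 with 223 CPM (208 to 238), followed by EC3 with 63 CPM (58.4 to 68) and EC2 with 53.5 CPM (48.9 to 58.5). At E17.5 EC3 came second with 529 CPM (497 to 562), followed by LIG with 366 CPM (353 to 378) and EC2 with 233 CPM (223 to 244). The lowest levels were 10.2 CPM in MG3 at E15.5 and 16.8 CPM in MG4 at E17.5. The intervals of EC3 and EC2 overlapped only narrowly at E15.5, at 58.4 to 58.5 CPM, and were far apart at E17.5.

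Free RNA in the droplets sets a floor for these values. Myeloid cells-like cells, which were taken as cells that should lack the gene, had 31.4 CPM of *C1qtnf3* (24.6 to 39.5) in the earlier library and 19.3 CPM (15.6 to 23.5) in the later one. A UMI was seen in 13.5% of these 237 cells (median 9127 UMIs) and 17% of these 482 cells (median 9570 UMIs). At E15.5 the intervals of 4 of the 15 clusters, namely EC4, LIG, EC3 and EC2, lay above the myeloid level, and the values of the other 11 are read as background. At E17.5 those of 14 clusters did, with MG4 as the exception, and MG3 was above only through 1 cell that held most of its UMIs. Barcodes dominated by haemoglobin RNA gave a second view. Of 4576 such barcodes at E15.5, which held a median of 416 other UMIs, 4.98% (4.37 to 5.65) had a *C1qtnf3* UMI. Among their other UMIs *C1qtnf3* stood at 102 CPM (90.6 to 114), a level that only EC4 and LIG exceeded at E15.5, so the EC2 and EC3 values of that library lie between the 2 measures of background. At E17.5, 182 such barcodes gave 7 *C1qtnf3* UMIs, or 47.5 CPM (19.1 to 97.8), and the intervals of EC4, EC3, LIG and EC2 lay above that, 4 of 15.

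**Figure D2:**
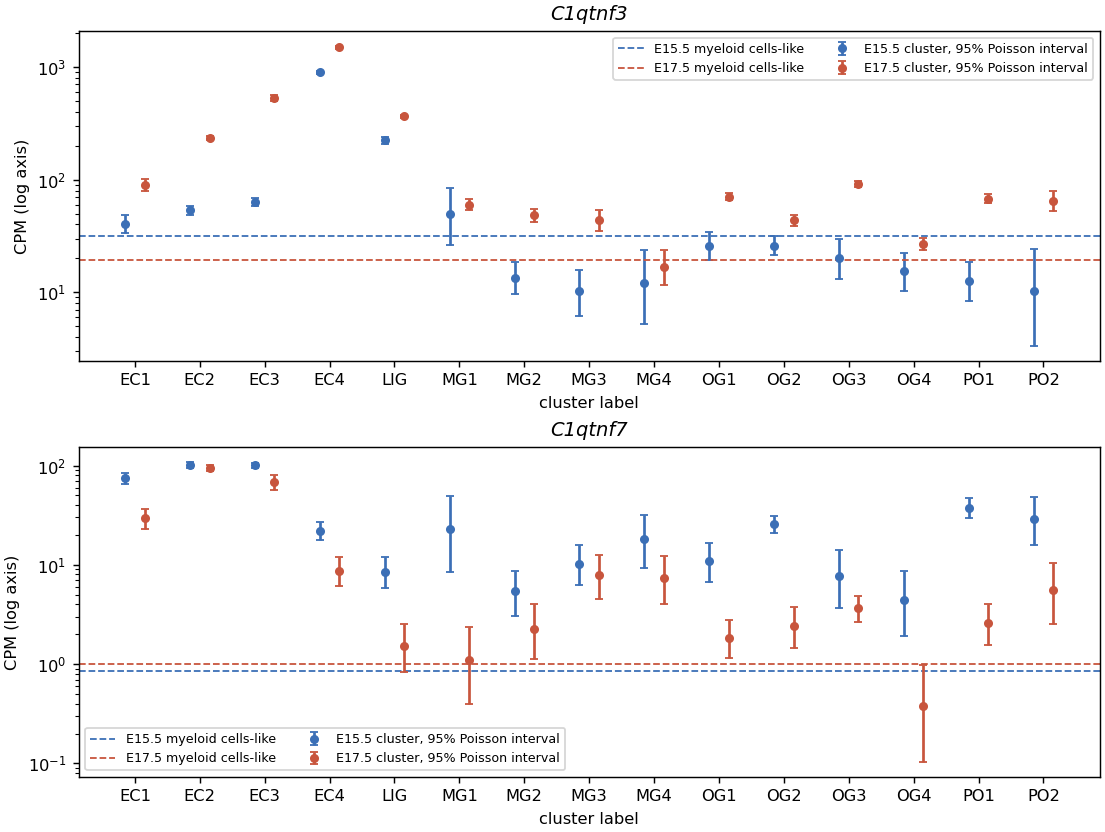
Levels of *C1qtnf3* (top) and *C1qtnf7* (bottom) in CPM on a log axis for each labelled cluster (points, with 95% Poisson intervals) in the E15.5 and E17.5 libraries. Dashed lines give the level in unlabelled myeloid cells-like cells of the same library, and for *C1qtnf3* at E15.5 the points of most meningeal and osteogenic clusters sit at or under that line of 31.4 CPM.

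Within EC4 the gene was widespread but uneven. The median EC4 cell held 6 *C1qtnf3* UMIs at E15.5 (quartiles 2 and 12, highest 35) and 14 at E17.5 (quartiles 6.25 and 24, highest 94). To compare cells at 1 depth, each was thinned at random to 3000 UMIs, which left out the 160 labelled E15.5 cells below that number. After thinning, 22.6% of the E15.5 and 14.3% of the E17.5 EC4 cells had no *C1qtnf3* UMI, and 22.2% and 44.3% had at least 5. The unthinned shares of EC4 cells with a UMI were 90.6% and 95.9%.

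Cells with at least 5 thinned UMIs were rare outside EC4 and LIG at E15.5 and less so at E17.5. Of 127 such cells at E15.5, 103 carried the EC4 label, 15 the LIG label, 6 the EC3 label and 3 the EC2 label. Of 240 at E17.5, 164 carried the EC4 label, 30 the LIG label, 21 the EC3 label and 17 the EC2 label. In EC3 such cells were 0.517% of all at E15.5 and 10.8% at E17.5, while 53.6% of the EC3 cells at E17.5 still had no UMI after thinning. The tenth of EC3 cells with the most *C1qtnf3* held 54.2% of the cluster's *C1qtnf3* UMIs at E17.5, against 30.1% in EC4.

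**Figure D3:**
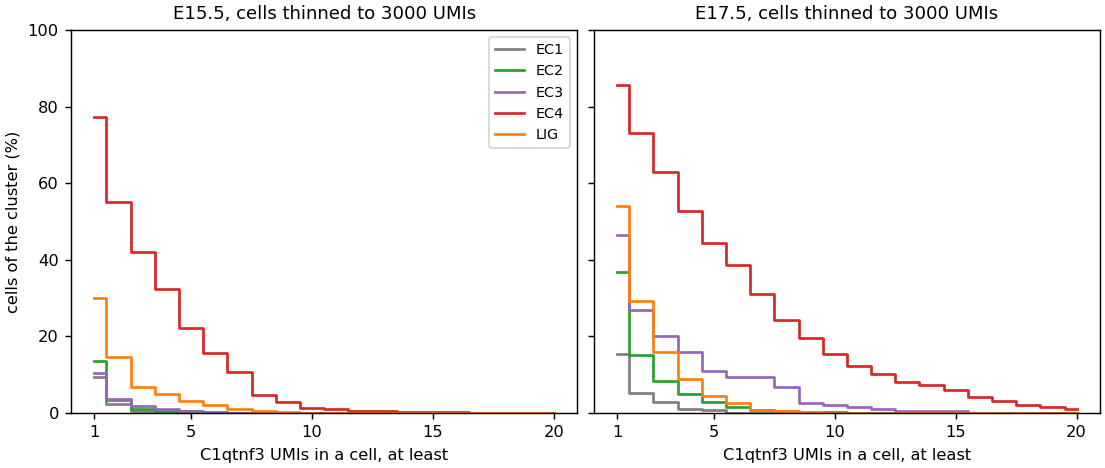
Share of cells in EC1, EC2, EC3, EC4 and LIG (y axis, percent) with at least the given number of *C1qtnf3* UMIs (x axis) after thinning each cell to 3000 UMIs, with E15.5 on the left and E17.5 on the right. The EC4 curve lies above the others in both libraries, and the EC3 curve at 5 UMIs stands at 0.517% at E15.5 and 10.8% at E17.5.

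*Tnmd* encodes the tendon and ligament membrane protein tenomodulin and is used to mark EC4 and LIG. The number of cells with both *Tnmd* and *C1qtnf3* was near that given by independent detection. In thinned EC4 cells, both genes were seen in 134 cells at E15.5, where detection independent of each other would give 145, and in 157 cells at E17.5 against 159. In LIG the numbers were 98 against 93.6 and 283 against 273. *C1qtnf3* and *C1qtnf7* likewise met about as often as independent detection gives, with 39 EC2 cells against 32.5 at E15.5 and 52 against 58.9 at E17.5. In all of these the exact Poisson interval of the observed number held the independent value. Such an interval does not use the fixed numbers of cells with each gene. It is therefore too wide to show that the genes were independent.

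*C1qtnf7* (ENSMUSG00000061535, GRCm38 chr5:43515538-43618803, plus strand), whose product is a secreted protein studied in glucose metabolism, had its highest levels in EC1, EC2 and EC3. At E15.5 it had 102 CPM (95.1 to 108) in EC2, 101 CPM (95.2 to 107) in EC3 and 74.8 CPM (65.4 to 85.1) in EC1, so EC2 and EC3 did not differ beyond their intervals. EC4 was lower, at 22 CPM (17.7 to 27), and LIG had 8.52 CPM (5.9 to 11.9). At E17.5 it had 95.4 CPM (88.7 to 102) in EC2, 67.5 CPM (56.5 to 80) in EC3, 29.3 CPM (23 to 36.7) in EC1, 8.68 CPM in EC4 and 1.52 CPM in LIG.

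The contrast of EC2 with the other labelled cells was 2.32-fold (2.14 to 2.51) at E15.5 and 18.9-fold (16.8 to 21.3) at E17.5, with 11.4, 22.4 and 20.4 for suffix 1, 2 and 3 alone, in a cluster where 2.45% of all genes were at least 2-fold higher in both libraries. The EC2 intervals overlapped between the libraries, whereas the other labelled cells together had 43.8 CPM and 5.05 CPM. Those other cells included 1185 EC3 cells in the first library and 194 in the second. EC3 also exceeded its own other labelled cells, by 2.43-fold (2.25 to 2.63) at E15.5 and 5.82-fold (4.82 to 6.97) at E17.5. The ectocranial clusters together held 87.9% of the *C1qtnf7* UMIs at E15.5 and 84.7% at E17.5.

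Outside the ectocranial layers, *C1qtnf7* reached 37.2 CPM (29.3 to 46.6) in PO1 at E15.5 but no more than 7.84 CPM, in MG3, at E17.5. The myeloid cells-like level was 0.86 CPM (0.104 to 3.11), then 0.993 CPM (0.323 to 2.32). At E15.5 the intervals of 13 clusters lay above it, and at E17.5 those of 8 did. The E15.5 count rests on which cells are taken as myeloid, since with a cluster led by *H2-Aa*, *S100a8* and *Lyz2* added it was 7. In the haemoglobin barcodes of E15.5 the gene stood at 17.1 CPM (12.7 to 22.6) of the other UMIs, and EC1, EC2, EC3 and PO1 lay above that. At E17.5 it had 1 UMI in these barcodes, 6.78 CPM (0.172 to 37.8), and EC2 and EC3 lay above. The E15.5 values of MG1 and MG4 rest on 6 and 12 UMIs.

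Within EC1 at E17.5, *C1qtnf7* was found together with the hypodermal markers *Pi16* and *Dpt*. Of 295 thinned EC1 cells, 20 had a *C1qtnf7* UMI, and 18 of these also had a *Pi16* UMI, where independent detection gives 6.37. With *Dpt* the number was again 18, against 5.15. The exact Poisson interval of 18 ran from 10.7 to 28.4, and both independent values lay below it. In EC1 at E15.5 the numbers were also above the independent values, at 41 against 31 for *Pi16* and 40 against 30.8 for *Dpt*. Both Poisson intervals held the independent value. They do not use the fixed numbers of cells with each gene, so they are too wide to show independence at E15.5. In EC2, where 585 of 608 thinned cells at E17.5 had a *Pi16* UMI, 153 cells had both against 154.

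The windows before the starts of *C1qtnf3*, *C1qtnf7* and *C1qtnf2* are shown because their leading clusters differ, EC4, EC2 and MG1 in turn. The RefSeq table (GRCm38.p6) had entries for 5 of the 7 genes, *C1qtnf2*, *C1qtnf3*, *C1qtnf5*, *C1qtnf6* and *C1qtnf7*. The 3 genes shown lie on the plus strand, and capitals mark a motif found. The 250 bases before each RefSeq start were searched on both strands for TATAAA, the core of the TATA box, for CAGCTG, a form of the E-box, and for TGACTCA, the AP-1 site. Bases that GENCODE places inside the gene were left off the print.
*C1qtnf3*, chr15:10952082-10952331: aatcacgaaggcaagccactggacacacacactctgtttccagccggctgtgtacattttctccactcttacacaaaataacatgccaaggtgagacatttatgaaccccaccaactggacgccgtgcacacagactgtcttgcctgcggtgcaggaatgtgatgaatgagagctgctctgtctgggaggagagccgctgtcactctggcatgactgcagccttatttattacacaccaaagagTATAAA
*C1qtnf7*, chr5:43515319-43515537: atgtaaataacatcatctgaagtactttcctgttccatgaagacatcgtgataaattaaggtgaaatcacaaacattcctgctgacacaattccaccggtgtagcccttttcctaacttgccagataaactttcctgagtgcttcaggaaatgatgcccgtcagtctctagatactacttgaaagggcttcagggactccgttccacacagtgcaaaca
*C1qtnf2*, chr11:43474056-43474275: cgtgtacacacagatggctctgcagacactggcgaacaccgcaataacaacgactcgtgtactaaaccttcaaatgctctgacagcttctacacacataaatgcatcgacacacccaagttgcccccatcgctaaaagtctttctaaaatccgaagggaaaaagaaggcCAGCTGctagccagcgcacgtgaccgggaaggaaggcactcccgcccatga
The *C1qtnf3* window ended with TATAAA, which began 6 bases before the listed start. TATAAA was present in 12.4% of all 32851 windows of this length. The *C1qtnf2* window held CAGCTG 81 bases before its RefSeq start, a motif present in 13% of windows. That start lies inside the gene as GENCODE places it, so fewer bases follow the motif in the print. None of the 3 motifs was found in the *C1qtnf7* window. Of the windows not shown, that of *C1qtnf6* held TGACTCA, which 4.46% of windows contained. This window, chr15:78529652-78529901, lies inside the gene as GENCODE places it. The *C1qtnf5* window, chr9:44101520-44101769, held CAGCTG 144 bases before its RefSeq start. It holds the GENCODE start of *Mfrp* (44101729) and lies away from that of *C1qtnf5* (44107245). These matches describe the letters and were not tied to binding or activity.

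*C1qtnf4* (ENSMUSG00000040794, GRCm38 chr2:90885860-90890525, plus strand), whose product carries a pair of C1q heads and is known for its action on feeding circuits in the brain, was highest in a meningeal cluster but not confined to the meninges. MG2 led in both libraries, with 98.4 CPM (87.4 to 110) in the first and 91.1 CPM (82.8 to 100) in the second. This was 2.48-fold (2.19 to 2.81) and 3.61-fold (3.25 to 4) above the other labelled cells, beside 2.44% of all genes called in MG2. MG3 had 64.1 CPM (53.4 to 76.3) and 69.1 CPM (58.2 to 81.5). MG4 differed between the libraries, at 22.6 CPM (12.6 to 37.2) from 15 UMIs at E15.5, while its E17.5 level was 70.6 CPM (59.1 to 83.6).

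Osteogenic cells had the least *C1qtnf4*, with 15.3 CPM (13.1 to 17.7), then 15.6 CPM (14.5 to 16.7), over OG1 to OG4, PO1 and PO2. The meningeal clusters together had 76.1 CPM (69.2 to 83.5) and 70.8 CPM (66.5 to 75.3). Between these lay the ectocranial clusters, at 47.4 CPM (44.8 to 50) and 30 CPM (27.5 to 32.8), and LIG, at 48.1 and 35.1 CPM. Among the osteogenic clusters OG1 was highest, at 29.1 CPM (22 to 37.8) and 31.1 CPM (28 to 34.5). Its E17.5 interval overlapped that of the ectocranial clusters. At E15.5 the ectocranial clusters made up 54.5% of the labelled cells and held 61.1% of the *C1qtnf4* UMIs. The myeloid cells-like level was 6.88 CPM (3.93 to 11.2) at E15.5, and PO2, OG4, OG2 and OG3 did not lie above it. At E17.5 it was 3.77 CPM (2.27 to 5.89), and OG4, at 6 CPM (4.61 to 7.68), did not lie above it. The haemoglobin barcodes had 40.9 CPM (33.8 to 49) of *C1qtnf4* at E15.5, which MG2 and MG3 exceeded, and 27.1 CPM (7.39 to 69.4) from 4 UMIs at E17.5, which only MG2 exceeded.

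*C1qtnf2* (ENSMUSG00000046491, GRCm38 chr11:43474276-43491525, plus strand), which encodes a secreted protein of lipid and glucose metabolism, was found in most clusters but hardly in mature osteoblasts. OG4 was lowest in both libraries, at 7.18 CPM (3.83 to 12.3) and 13.8 CPM (11.7 to 16.3), and did not lie above the myeloid cells-like levels of 8.17 and 8.74 CPM. At E15.5 the highest clusters were PO2 with 176 CPM (140 to 217), MG3 with 142 CPM (126 to 160), MG1 with 137 CPM (96.3 to 190) and PO1 with 129 CPM (114 to 146), whose intervals overlapped. At E17.5 they were LIG with 191 CPM (183 to 201), MG1 with 189 CPM (178 to 201), MG2 with 165 CPM (154 to 177) and MG3 with 162 CPM (145 to 180). LIG thus went from 43.9 CPM, among the lower clusters at E15.5, to the top at E17.5. In the haemoglobin barcodes *C1qtnf2* had 22.7 CPM from 65 UMIs, with 13 clusters above, then 67.8 CPM (32.5 to 125) from 10 UMIs, with 6 above.

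*C1qtnf6* (ENSMUSG00000022440, GRCm38 chr15:78523346-78531416, minus strand), which encodes a secreted protein linked to complement regulation and arthritis, was the most even member with a substantial level. It ranged from 64 CPM in PO2 to 167 CPM in EC2 at E15.5, a 2.61-fold range, and from 108 CPM in MG4 to 260 CPM in EC2 at E17.5, a 2.41-fold range. EC2 was highest in both libraries, at 1.49-fold (1.41 to 1.58) and 1.57-fold (1.5 to 1.64) of the other labelled cells, below the limit of 2-fold. All 15 clusters lay above the myeloid cells-like levels of 14.6 CPM (10.1 to 20.4) and 26.2 CPM (21.9 to 31.1). The haemoglobin barcodes gave another picture, with 78.6 CPM (68.7 to 89.6) at E15.5, where the intervals of 8 clusters lay above, and 176 CPM (115 to 258) from 26 UMIs at E17.5, where those of 0 did. By that measure the levels of 7 clusters at E15.5 and of all 15 at E17.5 were not separated from free RNA.

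*C1qtnf1* (ENSMUSG00000017446, GRCm38 chr11:118428203-118449963, plus strand), known for a product that inhibits platelet binding to collagen, gave 199 UMIs at E15.5 and 809 at E17.5. Its levels lay between 2.5 and 9.03 CPM and between 4.9 and 11.8 CPM, and its order over the clusters was not kept, with a Pearson correlation of log2(CPM + 1) between the libraries of 0.01 over 15 clusters. An antisense gene, *Gm11747*, overlaps 20.5% of its exon bases and had 1 and 27 UMIs. *C1qtnf5* (ENSMUSG00000079592, GRCm38 chr9:44107245-44109187, plus strand), the gene of a late-onset retinal degeneration, gave 2 UMIs at E15.5 and 3 at E17.5. All 1589 of its exon bases are shared with the same-strand gene *Mfrp*, which had 5 and 1 UMIs, so reads in the shared bases cannot be told apart by gene, and no level is read from so few UMIs.

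Between the libraries, each gene shifted in its own way, while the median E17.5 to E15.5 ratio of all genes was between 0.911 and 1.11 in each cluster. *C1qtnf3* had at least 50 UMIs in each library in 7 clusters and was at least 2-fold higher at E17.5 in 4 of these, EC1, EC2, EC3 and OG1, where 3.25% of all 66632 gene and cluster pairs with as many UMIs were. Over all 15 clusters the count was 9, and in 7 of the 9 the E15.5 value was among those read as background, with EC2 and EC3 as the others. At E15.5 both EC2 and EC3 also had less *C1qtnf3* than the haemoglobin barcodes, at 102 CPM (90.6 to 114). In 13 clusters the counting interval of its ratio lay above 1, and its median ratio was 2.72. The ratio was 8.39 in EC3 (7.61 to 9.26), where 5.42% of genes were at least 2-fold higher, and 9.01, 8.94 and 7.31 for the cells of barcode suffix 1, 2 and 3. In EC4 it was 1.66 (1.6 to 1.73), and 1.99, 1.53 and 1.54 by suffix.

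In EC2 the suffixes did not agree. The *C1qtnf3* level at E17.5 was 101 CPM (88.5 to 115) for suffix 1, 283 CPM (263 to 303) for suffix 2 and 291 CPM (272 to 312) for suffix 3. The EC2 ratio to E15.5 was accordingly 1.89, 5.28 and 5.44, with a joint value of 4.36 (3.95 to 4.83). In MG3 a single suffix 1 cell held 58 of the 89 *C1qtnf3* UMIs at E17.5, and without it the MG3 level was 15.4 CPM in place of 43.6 and the ratio to E15.5 was 1.51, below 2-fold.

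*C1qtnf7* had lower joint values, although only EC1, EC2 and EC3 held 50 UMIs in each library, and of these EC1 was at least 2-fold lower at E17.5 (ratio 0.391, 0.297 to 0.511), against 5.82% of all gene and cluster pairs. With at least 20 UMIs over both libraries it was 2-fold lower in 10 of 13 clusters, but among the 10 only EC1 and PO1 lay above the haemoglobin barcodes at E15.5. The interval lay below 1 in 9 of these 10 and in EC3 (ratio 0.668), and not in OG3 (0.472, 0.235 to 1.05). Of the 13, EC2 differed least, with a ratio of 0.939 (0.852 to 1.03). In PO1 the level was 37.2 CPM (29.3 to 46.6) at first and 2.61 CPM (1.57 to 4.08) at E17.5, a ratio of 0.0702 (0.0401 to 0.117), where 9.74% of genes with 50 UMIs in each library were at least 2-fold lower. In OG2, whose E15.5 interval overlapped that of the haemoglobin barcodes, it was 25.6 CPM (20.9 to 31) and 2.4 CPM (1.44 to 3.74), a ratio of 0.0936, where 9.96% of genes were. The ratios by suffix lay between 0.0567 and 0.119 in PO1 and between 0.0328 and 0.202 in OG2.

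*C1qtnf2* differed in both directions, with more rises than falls. The interval of its ratio lay above 1 in 9 clusters and below 1 in 3. With 50 UMIs in each library, 4 of 12 clusters were at least 2-fold higher and 0 were 2-fold lower, beside 3.25% and 5.82% of all pairs. The 4 were LIG, OG1, EC3 (2.65, 2.26 to 3.11) and MG2 (2.74, 2.33 to 3.24). The gene was 4.36-fold higher at E17.5 in LIG (3.73 to 5.13), where 2.19% of genes were at least 2-fold higher, with 4.43, 4.44 and 4.29 by suffix, and 4.06-fold higher in OG1 (3.23 to 5.18), where 2.68% of genes were. It was lower in OG2, at a ratio of 0.654 (0.581 to 0.738), in PO1, at 0.682 (0.59 to 0.79), and in PO2, at 0.57 (0.436 to 0.75). In the haemoglobin barcodes *C1qtnf2* went from 22.7 to 67.8 CPM, and their part in its rises was not tested. *C1qtnf6* had a ratio whose interval lay above 1 in 14 of 15 clusters, with ratios from 1.18 in MG1 to 2.35 in PO2. With 50 UMIs in each library this held in 12 of 12 clusters, beside 25.8% of all pairs, and the haemoglobin barcodes also went from 78.6 to 176 CPM. Their part in the result was not tested. *C1qtnf4* was 3.13-fold (1.83 to 5.74) higher in MG4, from 15 UMIs at E15.5, where 2.84% of genes with 50 UMIs in each library were at least 2-fold higher, and lower in EC2, at a ratio of 0.466 (0.389 to 0.556), where 3.54% were at least 2-fold lower.

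**Figure D4:**
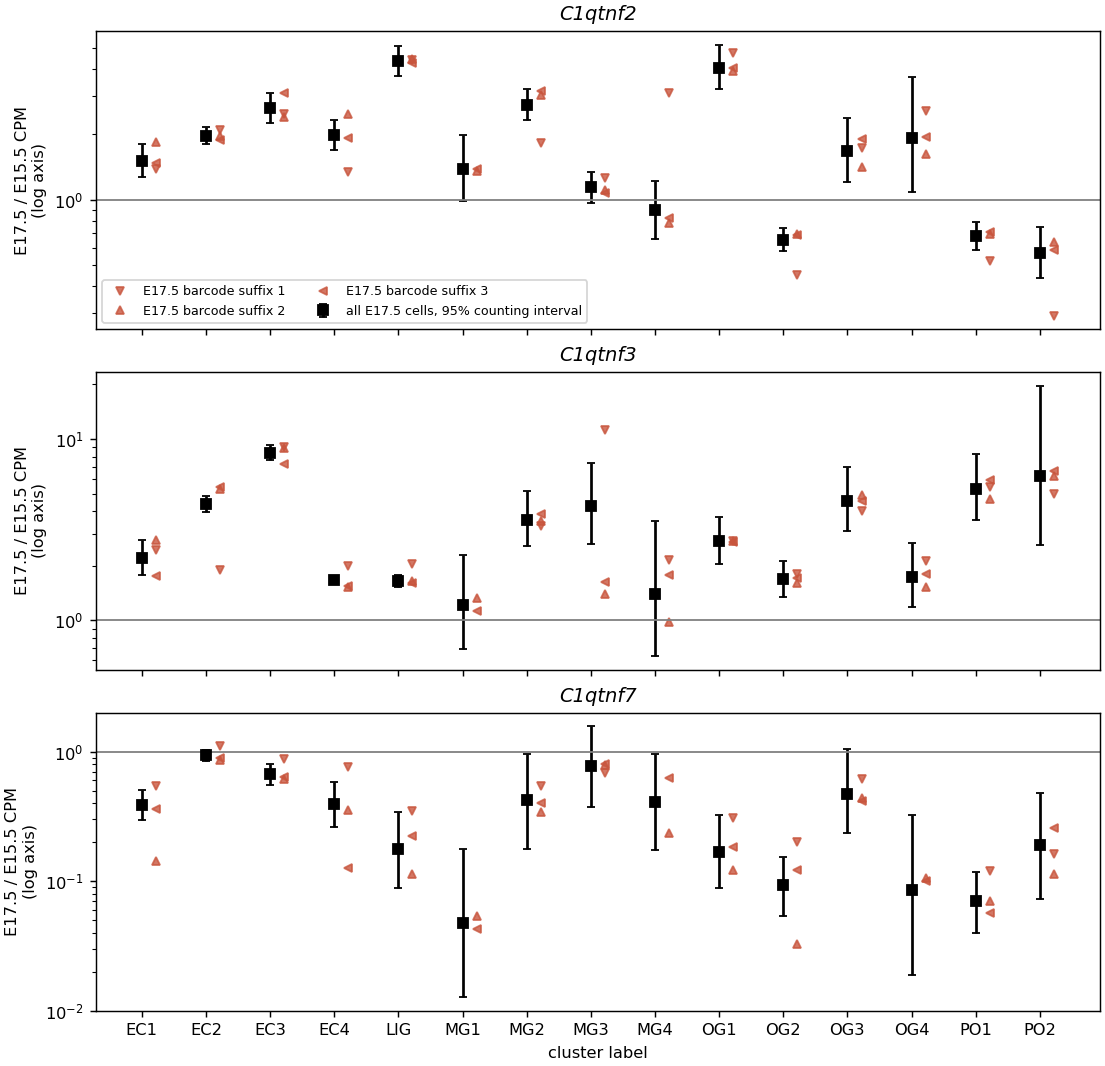
Ratio of the E17.5 to the E15.5 level (y axis, log scale) of *C1qtnf2*, *C1qtnf3* and *C1qtnf7* in each labelled cluster, with black squares for all E17.5 cells and their 95% counting intervals and triangles for the cells of each E17.5 barcode suffix; suffixes with no UMI and MG1 suffix 1 are not drawn. *C1qtnf3* lies above 1 and *C1qtnf7* below 1 in every cluster as a joint value, and the suffix triangles of *C1qtnf3* part in EC2 and MG3.

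Cells without a deposited label extended the picture to other tissues of the suture. They were clustered in each library without the *C1qtnf* genes and named where at least 5 of 6 markers of a type were 2-fold higher than in the other clusters. *C1qtnf3* was high in chondrocytes-like cells. At E15.5 there were 4 such clusters, and their levels were 351, 391, 417 and 662 CPM, with a UMI in 81.5% to 95.7% of cells. At E17.5 a cluster of 121 cells led by *Matn3*, *Ucma* and *Hapln1* had 467 CPM (433 to 503), while a cluster of 197 cells led by *Clu*, *Prg4* and *Chad* had 88.8 CPM (75.4 to 104). The interval of the latter overlapped that of the haemoglobin barcodes (19.1 to 97.8). Pooled, *C1qtnf3* had 393 CPM in the 826 chondrocytes-like cells of E15.5 and 264 CPM in the 318 of E17.5, whose clusters had unlike leading genes.

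*C1qtnf7* was all but missing from the same cells, with 11 UMIs at E15.5 (1.13 CPM, 0.566 to 2.03) and 0 UMIs at E17.5, for which the exact Poisson interval reaches 1.14 CPM. *C1qtnf4* had 34.5 CPM (30.9 to 38.5) and 66.9 CPM (58.2 to 76.4) in them. These intervals overlapped those of the haemoglobin barcodes, at 40.9 CPM (33.8 to 49) and 27.1 CPM (7.39 to 69.4). The highest *C1qtnf4* level in any named cells was in 95 neurons-like cells at E17.5, at 189 CPM (168 to 212) with a UMI in 84.2% of cells. The 10 leading genes of that cluster included *Neurod1*, *Crx*, *Otx2* and *Pde6g*, which are known from photoreceptors. *C1qtnf6* had 77.3 CPM (66.3 to 89.6) and 151 CPM (135 to 167) in pericytes-like cells, and *C1qtnf2* had 29.9 CPM (23.2 to 37.9) and 58.9 CPM (49.3 to 69.8).

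Among the clusters that stayed unnamed was a group of 16 cells at E17.5 with a median of 18980 UMIs. It was led by *Clec3b*, *Osr2* and *Krtdap*, with *Agtr2* and *Dpt* among its 10 leading genes. This group had 501 CPM (423 to 590) of *C1qtnf3* and 41.5 CPM (21.4 to 72.5) of *C1qtnf7*. Its *C1qtnf7* interval overlapped that of the haemoglobin barcodes (0.172 to 37.8). At E15.5 an unnamed cluster of 86 cells with a median of 14490 UMIs, against 9773 over all unlabelled cells, with *Dpp4*, *Ly6a* and *Dpt* among its 10 leading genes, had 90 CPM (74.5 to 108) of *C1qtnf7*.

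**Figure D5:**
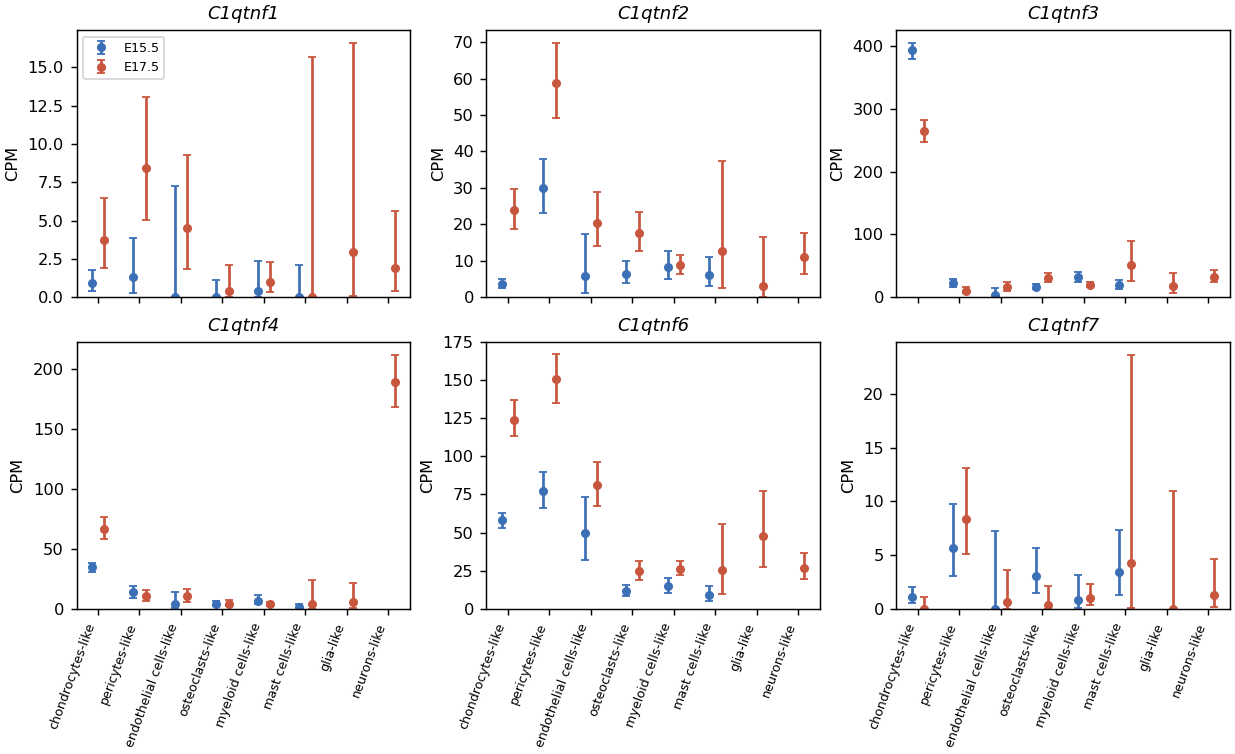
Levels in CPM (y axis, linear) of 6 of the 7 genes in cell types named by markers among cells without a deposited label, with 95% Poisson intervals, at E15.5 and E17.5. *C1qtnf3* stands out in chondrocytes-like cells and *C1qtnf4* in neurons-like cells at E17.5 (189 CPM). For *C1qtnf6* at E15.5, pericytes-like cells have 77.3 CPM, chondrocytes-like cells 57.9 CPM and endothelial cells-like cells 49.4 CPM (32 to 73). None of these lies above the haemoglobin barcodes, at 78.6 CPM (68.7 to 89.6). *C1qtnf5*, with at most 1 UMI in all these cells, is not drawn.

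Genes that followed the members across the 15 clusters were ranked by the smaller of the Pearson correlations of log2(CPM + 1) in the libraries, among 9648 genes; clusters of 1 library share depth and processing. Closest to *C1qtnf3* were *Meox2*, a homeobox gene, with 0.83 at E15.5 and 0.91 at E17.5, the secreted Wnt modulator *Sfrp2* (0.85 and 0.79), *Xaf1*, *Tmem178* and *Fibin*. *Meox2* was highest in EC4 at 201 and 211 CPM, whereas *Sfrp2* was highest in LIG at 5580 and 10093 CPM.

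Closest to *C1qtnf7* were *Dpp4*, a cell surface peptidase of fibroblasts (0.89 and 0.95), *Clec3b* (0.88 and 0.94), *Sdcbp*, *Rap1a* and *Agtr2*, an angiotensin receptor. The *Dpp4* levels of EC2 and EC3 were 240 and 236 CPM in the earlier library, then 221 and 110 CPM. Closest to *C1qtnf4* were the glutathione transferases *Gstt1* (0.93 and 0.95) and *Gstt3*, then *Foxp2*, *Fxyd2* and *Ogn*. The smaller correlations of the leading genes were 0.83 to 0.79 for *C1qtnf2*, namely *Sh3bgrl3*, *Rab30*, *Adgra2*, *Gtdc1* and *Arhgap28*, and 0.73 to 0.70 for *C1qtnf6*, namely *Crls1*, *Hk2*, *Arfip2*, *Rusc2* and *Fbxo4*. Between the members themselves the correlations were 0.20 and 0.45 for *C1qtnf3* with *C1qtnf7*, and they changed sign between the libraries for some pairs, as for *C1qtnf1* with *C1qtnf6* (-0.65 and 0.40) and *C1qtnf4* with *C1qtnf6* (0.51 and -0.43). *C1qtnf1* with *C1qtnf4* stood at -0.40 and -0.61, and *C1qtnf2* with *C1qtnf4* at 0.11 and 0.70.

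Of 24 other genes with a C1q domain or a family name, 11 had at least 50 UMIs in each library and 5 of these were at least 2-fold higher in their leading cluster in both, beside 19.2% of all genes. *Col8a1*, a short-chain collagen with a C1q head, had the same leading cluster as *C1qtnf3*, EC4, at 1411 CPM in the earlier library (5.52-fold) and 2186 CPM (9.27-fold) in the later. *Emilin2*, an elastin-associated glycoprotein, led in EC2 with *C1qtnf7* at 288 CPM (3.85-fold) and 548 CPM (24.4-fold). *Cbln2*, a relative of the synaptic cerebellins, led in EC3, *Col8a2* in MG1 and *Mmrn2* in PO2. *C1qtnf12*, listed as *Fam132a* at E17.5, had 1353 and 5862 UMIs and had OG2 as leading cluster, at 63.6 CPM (2.59-fold) and 73.5 CPM (1.18-fold).

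Adiponectin itself was nearly absent, with 7 and 1 UMIs. Of 6 receptors and partners, 4 had enough UMIs, and none was at least 2-fold higher in its leading cluster in both libraries, again beside 19.2% of all genes. *Adipor1*, an adiponectin receptor, was even over the clusters, with the leading cluster OG4 at 123 and 125 CPM and the lowest clusters at 75.1 and 81.6 CPM. *Adipor2* reached 21.7 and 32 CPM in EC2. *Cdh13*, a cadherin that binds adiponectin, gave 148 and 292 UMIs, and *Adgrb3*, a receptor for C1q-like proteins, 389 and 71 UMIs. The layer markers *Tnmd*, *Pi16*, *Dpt*, *Ly6a*, *Scx*, *Mkx* and *Tac1* were enriched in their leading clusters in both libraries, 7 of 7, a list chosen with these data known. *Tnmd*, *Mkx* and *Tac1* led in LIG and *Pi16*, *Dpt* and *Ly6a* in EC2, whereas *Scx*, a tendon and ligament factor, led in MG2 at 45.5 and 87.6 CPM.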

How the data were processed

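Cells from embryonic mouse coronal sutures were profiled with the Chromium 3′ v2 kit of 10x Genomics. The authors deposited UMI counts per gene and barcode, before their cell filters and without normalization, together with a table that gives a cluster for osteogenic and mesenchymal cells, made with Seurat 3.2.0. Reads were aligned to mm10 with Cell Ranger, and the E15.5 matrix header names a later version than the methods. The labelled cells of the E15.5 and E17.5 libraries held 48607817 and 92585034 UMIs, and the intervals and floors (3 counts) cover counting error only.

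Counts were summed per cluster and scaled by the cluster's total, with scanpy 1.11.5, scipy 1.17.1, pandas 2.3.3 and numpy 2.4.6 in Python 3.11.15. Ratios have conditional exact binomial intervals. No test was run, since each stage is 1 library. The members and lists were chosen with earlier results of these data known. Named genes are the members, the 5 genes most like each member with at least 200 UMIs per library, and lists of C1q domain genes, receptors and layer markers. Unlabelled cells within the authors' limits (1000 UMIs, 1000 genes, 7.5% mitochondrial, 3% Hbb and Hba) were clustered with the Leiden method (2000 variable genes, 30 components, 30 neighbours, resolution 1). Naming from 5 of 6 markers, the haemoglobin barcodes (over 50% of UMIs), the myeloid comparison and the exclusion of the MG3 cell were chosen after seeing the data. No further doublet removal was done, and an alternative left out cells from the 94th percentile of Scrublet scores upwards. Unnamed clusters with high UMI totals may hold doublets in either library, and no doublet sort is stated for E15.5. Ratios, intervals and the likeness ranking were tested on simulated data. Positions and promoters are from GENCODE and RefSeq of GRCm38. Protein sequences were not used here.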

Additional observations from a re-analysis of the deposited data

How the results depend on the processing

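Of 75 alternative values of the results that answer a comparison, 55 stayed within the counting interval or count range of the reported value and 20 moved beyond it, of which 2, both for *C1qtnf7* in EC2, crossed 1. The EC4 ratio of *C1qtnf3* at E15.5, 16, was 18 without cells of high doublet score. At E17.5, 12.6 became 13.3 with cells thinned to 3000 UMIs, 13.4 as a mean over cells, 13.7 without high doublet scores, and 19.3, 11 and 11.4 for barcode suffix 1, 2 and 3 alone. The EC2 ratio of *C1qtnf7* at E17.5, 18.9, was 15.2 as a mean over cells, 11.4 for suffix 1 and 22.4 for suffix 2. The E17.5 to E15.5 ratio of *C1qtnf3* in EC4, 1.66, was 1.9 thinned, 1.81 as a mean over cells, and 1.99, 1.53 and 1.54 by suffix. That of *C1qtnf7* in EC2, 0.939, was 1.07 thinned and 1.1 for suffix 1, so its direction was not stable. The number of members enriched in their leading cluster, 3, was 1 at a limit of 3-fold. Of 25 most similar genes, 7 were shared when Spearman correlations were used and 13 when clusters with under 50 cells were left out. The cause of these shifts was not tested. Of 100 further values, 10 moved, including the EC3 ratio of *C1qtnf3* between the libraries, 8.39, which was 10.2 without high doublet scores, and the number of clusters above the myeloid level at E15.5 with cells named from 3 markers, 13 in place of 5 for *C1qtnf1* and 7 in place of 13 for *C1qtnf7*. No paired analysis was possible because each stage is 1 library. Depth limits *C1qtnf1*, *C1qtnf5* and the small clusters MG1 and PO2 at E15.5.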

Other observations

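Values outside the comparisons concern cells that the deposited labels leave out. At E15.5 the unnamed cells included a cluster of 160 cells with a median of 17194 UMIs, led by *Nppc*, *Igfbp5* and *Shisa3*, with 219 CPM of *C1qtnf3* (203 to 237) and a UMI in 76.9% of cells. Another, of 148 cells led by *Ttr*, *Dct* and *Rlbp1*, had 338 CPM (309 to 369). A cluster of 152 cells led by *Prg4*, *Cldn11* and *Tac1* had 124 CPM (104 to 146), which overlapped the interval of the haemoglobin barcodes (90.6 to 114). At E17.5 an unnamed cluster of 92 cells led by *Aldh1a2*, *Fmo1* and *Ntrk2* had 152 CPM of *C1qtnf2* (128 to 180), near the levels of the meningeal clusters. Over all cells without a label, *C1qtnf3* had 181 CPM (177 to 186) at E15.5, above the 127 CPM (124 to 130) of the labelled cells. The E17.5 values were 69.4 CPM (66.4 to 72.5) without a label, below the 185 CPM (182 to 188) with one.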
